A study of Mus musculus with 4 samples.

Results

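Expression of 10 extracellular matrix genes was followed in *Hnrnpl*-deficient mouse myoblasts: *Fn1*, *Sparc*, *Postn*, *Dcn*, *Lum*, *Bgn*, *Fbn1*, *Thbs1*, *Tnc* and *Lox*. These 10 were taken by name from the 56748 gene IDs in the counts, and all 10 had an entry. C2C12 is an established mouse myoblast line, kept here in growth medium. Cells carried either a scrambled shRNA (scrambled) or a mixture of 3 shRNAs against *Hnrnpl* (knockdown), on plasmids with an eGFP reporter and selected with puromycin, and the labels give the genotype of both as wild type. RNA was read directly on nanopore flow cells, with 2 libraries per group and 1 library of each group in each of 2 labelled batches. Libraries of a group were passages of a single selected stable line, so the p-values below measure the spread between passages, and a difference between the lines cannot be told apart from the knockdown. *Hnrnpl*, which encodes an RNA-binding protein that regulates splicing and RNA stability, had 358 and 656 reads in scrambled 1 and 2 against 242 and 258 in knockdown 1 and 2. Its log2 fold change was -0.78 (adjusted p = 0.0112 with a standard error of 0.18, edgeR's quasi-likelihood test with Benjamini-Hochberg adjustment), which became -0.48 without scrambled 2 (adjusted p = 0.194) and -0.62 without knockdown 1 (adjusted p = 0.150).

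Libraries held 1229424 to 1676911 reads on genes, and the matrix genes took 0.3135 to 0.3603% of them. Of the 9 myoblast markers, *Pax7* had no read and *Myod1* a single read in scrambled 2, whereas *Myf5* had 113 to 190 reads and desmin (*Des*) 242 to 571. Some genes known to be expressed in C2C12 cells, *Myod1* and *Col1a1* among them, were listed at or near 0; the cause was not found, so a 0 in these counts may not mean that the RNA was absent. The summed level of the 9 markers was 806.5 and 950.6 CPM (counts relative to the library total) in scrambled and 595.8 and 508.4 CPM in knockdown, and 4 of the 7 tested were called lower, as were 3.22% of all genes tested (*Des*, *Cdh15*, *Chrna1* and *Ncam1*; *Des* not with the replicate block, adjusted p = 0.0526, edgeR, nor without scrambled 2, knockdown 1 or knockdown 2, 0.297, 0.0970 and 0.117). Fibroblast markers, which could come with matrix genes, summed to 95.85 and 125.8 CPM in scrambled and 98.94 and 83.78 CPM in knockdown, with *Thy1*, *Tcf21* and *Dpt* at 0 among the 10. Most of this sum was *Pdgfrb* (log2 fold change -0.05). All 4 fibroblast markers tested had negative log2 fold changes, with a median of -0.58, and none was called. The groups did not overlap for *Ly6a* (20 and 26 reads in scrambled against 11 and 8 in knockdown, -1.06, adjusted p = 0.113, edgeR) and *Cd34* (13 and 19 against 5 and 4, -1.60, adjusted p = 0.0563). Endothelial, immune and adipocyte markers each summed to less than 5 CPM in every library. The part of these markers in the results below was not tested, and fewer cells of a type and less RNA per cell cannot be told apart in bulk RNA.

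Matrix glycoproteins are secreted proteins that give cells something to hold and to pull on. Fibronectin is assembled by integrins on the cell surface into fibrils, on which other matrix proteins are laid down, and fibrillin-1 forms the microfibrils of elastic fibres. Tenascin-C, thrombospondin-1, SPARC and periostin are matricellular proteins, which are built less into the scaffold than they modulate adhesion, growth factors and matrix assembly. Decorin, lumican and biglycan are small leucine-rich proteoglycans, which carry glycosaminoglycan chains and bind collagen fibrils, and lysyl oxidase cross-links collagen and elastin. In muscle, these proteins surround fibres and satellite cells, and tenascin-C is known for its rise around regenerating fibres.

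The tenascin-C and fibrillin-1 genes were lower in knockdown, thrombospondin-1 was higher, and the other 4 genes with enough reads were not called. The thrombospondin-1 call was lost with the batch number as a replicate block (adjusted p = 0.0764, edgeR). Its log2 fold change of 0.56 became 0.28 without knockdown 1. Calls required a log2 fold change beyond 0.5 in either direction, an adjusted p of less than 0.05 and normalized counts averaging more than 10. Of the 10 genes, 7 passed the filter on low counts, of which 2 were called lower and 1 higher. Among all 8670 genes tested, 3.22% were called lower and 2.33% higher. Between groups, 6 of the 7 genes did not overlap in normalized count, 4 lower and 2 higher, against 52.4% of all genes tested. The median log2 fold change was -0.24 for the 7 and -0.00059 for all genes tested. *Tnc* ranked 4 of 8670 by p-value, *Fbn1* ranked 71 and *Thbs1* ranked 471.

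**Figure D1:**
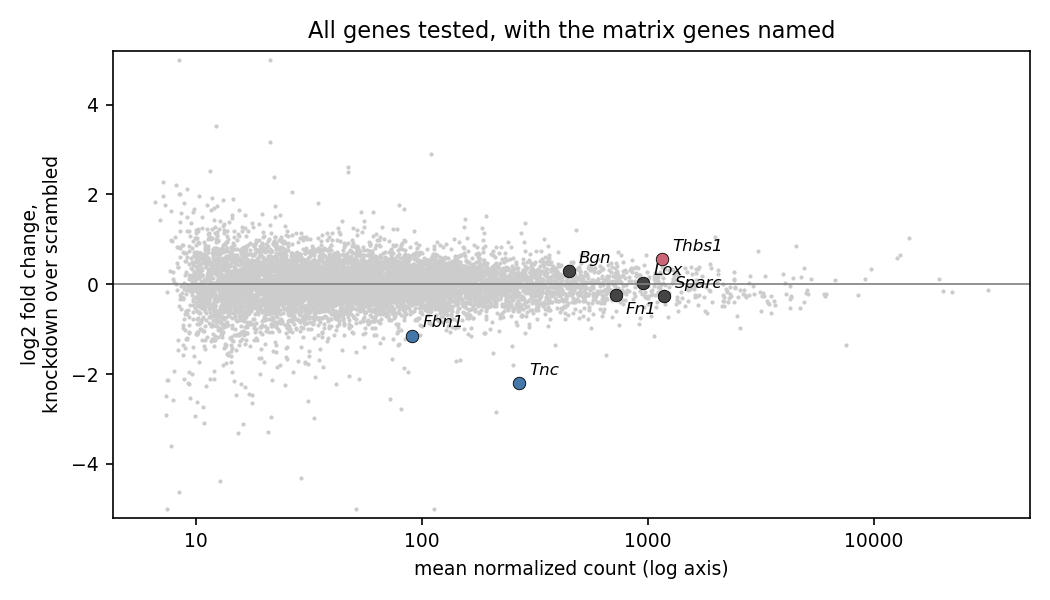
Log2 fold change of knockdown over scrambled (y axis) against the mean normalized count over the 4 libraries (x axis, log scale) for the 8670 genes tested, with the 7 matrix genes named (blue, called lower; red, called higher; dark grey, not called). *Tnc* lies below the genes of like count and *Fbn1* near their lower edge, and 5 genes beyond 5 on the log2 scale are drawn at the limit of the axis.

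**Figure D2:**
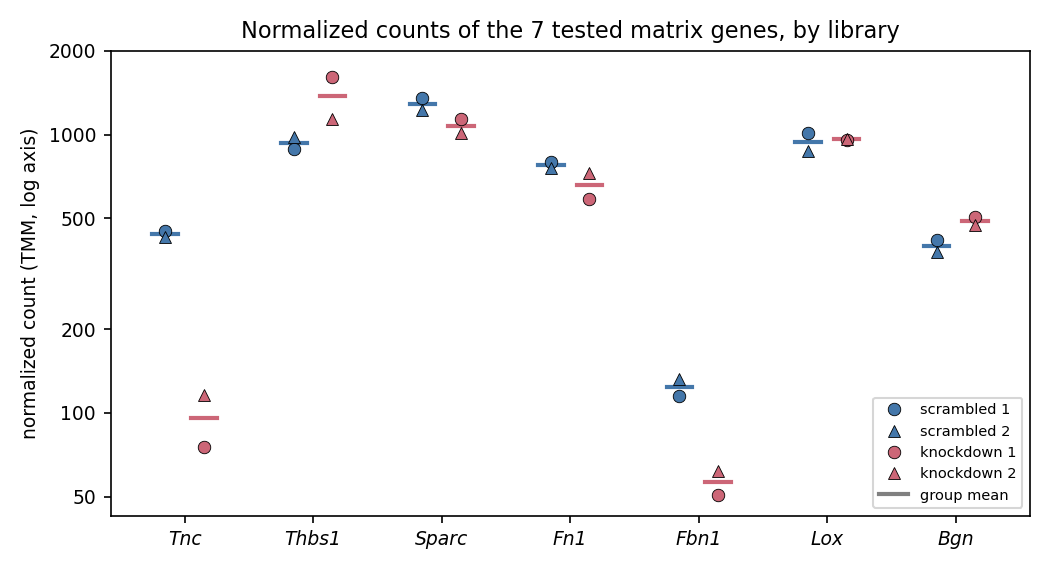
Normalized count (y axis, log scale) of the 7 tested genes in scrambled (blue) and knockdown (red) libraries, with circles for libraries 1, triangles for libraries 2 and a bar at the group mean. The *Tnc* knockdown libraries sit at 75.7 and 116, far below the scrambled libraries at 449 and 428, while the *Lox* groups overlap.

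Among the matricellular genes, *Tnc* (chr4:63878014-63965443, GRCm39, reverse strand, 26 exons) encodes tenascin-C, a large hexameric glycoprotein that loosens cell adhesion to fibronectin. It had 429 and 509 reads in scrambled 1 and 2 against 76 and 99 in knockdown 1 and 2. Both knockdown libraries were far below both scrambled libraries, with normalized counts (TMM scaling, at the size of an average library) of 438.7 ± 14.8 (SD, n = 2) in scrambled cells and 95.7 ± 28.3 (SD, n = 2) under knockdown. The fall was 4.62-fold, or -2.21 ± 0.18 (standard error) as a log2 fold change, with an adjusted p of 4.08e-07 by edgeR. Of the 2575 genes whose normalized counts averaged at least 100, only 2 had a lower log2 fold change. The fall was seen in each batch, at -2.56 on the log2 scale in batch 1 and -1.88 in batch 2. Leaving out 1 library moved the edgeR estimate between -2.53 and -1.92, and the adjusted p was under 0.05 in all 17 alternative fits. In the 4 of these fits that leave out a library, the lone library of a group is assumed to vary like the other group, here and below, so their p-values rest on the spread of 1 group.

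*Fbn1* (chr2:125142514-125349913, reverse strand, 65 exons) encodes fibrillin-1, the main protein of the microfibrils and the gene mutated in Marfan syndrome. Its counts were 110 and 157 in scrambled 1 and 2 against 51 and 53 in knockdown 1 and 2, so that the groups did not overlap. Normalized counts were 123.6 ± 11.96 (SD, n = 2) in scrambled cells and 56.4 ± 7.87 (SD, n = 2) under knockdown, 2.21-fold lower (log2 fold change -1.14, standard error 0.19, adjusted p = 0.00117, edgeR). The batches gave nearly the same value, -1.17 and -1.09 on the log2 scale. Left-out libraries moved it between -1.29 and -1.0004, and the adjusted p stayed under 0.05 in all 17 alternative fits, from 7.02e-06 to 0.0493.

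Promoters of the called genes *Tnc* and *Fbn1*, 250 bases before to 50 after an annotated start, are shown because both genes fell. Of the 10 genes, *Sparc*, *Postn*, *Bgn*, *Fbn1* and *Tnc* were matched in the RefSeq promoter table (build GRCm38.p6), and the windows were placed in GRCm39 by exact match. Both lie on the reverse strand and are written 5′ to 3′, the *Tnc* window (1 of 2 in the table) at chr4:63965124-63965423 and the *Fbn1* window at chr2:125348309-125348608. Capitals mark a TATAAA or a GGGCGG motif.
Tnc: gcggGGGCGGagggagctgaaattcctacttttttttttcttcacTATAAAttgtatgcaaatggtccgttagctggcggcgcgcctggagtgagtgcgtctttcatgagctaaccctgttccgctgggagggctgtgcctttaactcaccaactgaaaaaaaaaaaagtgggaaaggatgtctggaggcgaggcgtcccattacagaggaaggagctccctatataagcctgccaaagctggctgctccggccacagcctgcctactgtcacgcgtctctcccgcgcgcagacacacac
Fbn1: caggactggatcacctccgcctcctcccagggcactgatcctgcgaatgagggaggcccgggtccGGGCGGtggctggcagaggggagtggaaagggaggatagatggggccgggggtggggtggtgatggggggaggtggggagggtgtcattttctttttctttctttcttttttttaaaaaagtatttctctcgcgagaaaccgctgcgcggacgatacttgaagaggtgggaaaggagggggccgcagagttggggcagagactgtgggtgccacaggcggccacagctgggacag

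The TATAAA of *Tnc* lies 205 to 200 bases before the annotated start in the window shown, and 126 to 121 bases before that of the other window. Only this exact string was searched, so similar strings are left in lower case. The *Tnc* window shown also holds tatataag, much closer to its annotated start than the marked TATAAA. Among 8471 windows of 6648 tested genes, 6.72% held TATAAA on either strand, and of the 4 tested matrix genes with a window only *Tnc* did. GGGCGG, the core of a GC box, was present in *Tnc*, *Fbn1* and *Bgn* and in 66.3% of all windows. None of the 4 held CCAAT (37.9% of all windows), TGANTCA (4.75%), GGAATG (11.3%) or a CArG box (1.31%), each searched on both strands. These matches describe letters in a window and not binding.

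*Thbs1* (chr2:117941974-117957616, forward strand, 22 exons) encodes thrombospondin-1, which activates latent TGF-beta and binds CD47 and integrins. Reads numbered 848 and 1168 in scrambled 1 and 2 against 1620 and 972 in knockdown 1 and 2. After scaling, the knockdown values of 1614 and 1136 exceeded the scrambled values of 888 and 983, and knockdown 1 was much the highest. Means were 935 ± 67.0 (SD, n = 2) in scrambled cells and 1375 ± 338 (SD, n = 2) under knockdown, 1.47-fold higher. The log2 fold change was 0.56 (with 0.16 as its standard error, adjusted p = 0.0429, edgeR), and within batches it was 0.86 and 0.21. With the batch number as a replicate block it was 0.54 and no longer called (adjusted p = 0.0764). It was 0.28 without knockdown 1 (adjusted p = 0.361), 0.48 without scrambled 1 (0.172), 0.62 without scrambled 2 (0.0584) and 0.78 without knockdown 2 (0.00255), and the adjusted p was under 0.05 in 11 of 17 alternative fits, with a range of 0.000953 to 0.361.

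*Sparc* (chr11:55285317-55314067, reverse strand, 10 exons) encodes osteonectin, a collagen-binding protein of remodelling matrix. With 1291 and 1452 reads in scrambled 1 and 2 against 1138 and 869 in knockdown 1 and 2, its normalized counts were 1287 ± 92.0 (SD, n = 2) and 1075 ± 83.5 (SD, n = 2). The groups did not overlap, knockdown being the lower, but the log2 fold change of -0.26 did not pass the test (standard error 0.14, adjusted p = 0.286, edgeR). The batches gave -0.25 and -0.27, and with chromosome medians removed *Sparc* stood at -0.15 (adjusted p = 0.691, edgeR).

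*Postn* (chr3:54268501-54298471, forward strand) encodes periostin, a partner of tenascin-C and collagen in the matrix. Only 3 and 4 reads were counted in scrambled 1 and 2 against 3 and 5 in knockdown 1 and 2, too few for the test. Its knockdown to scrambled ratio, corrected for depth, was 1.345, with a 95% counting interval from 0.4262 to 4.357. No difference was detected. The interval covers counting error only, and ratios within it could not be told apart on these few reads.

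*Fn1* (chr1:71624673-71692419, reverse strand, 46 exons) encodes fibronectin. Counts of 762 and 898 in scrambled 1 and 2 against of 588 and 625 in knockdown 1 and 2 gave normalized means of 776.6 ± 29.95 (SD, n = 2) and 658 ± 102 (SD, n = 2). Although knockdown was lower in both libraries, knockdown 2 (730) came close to scrambled 2 (755). The log2 fold change of -0.24 did not pass the test (standard error 0.14, adjusted p = 0.344, edgeR), and it was -0.45 in batch 1 and -0.05 in batch 2. Leaving out 1 library moved it between -0.088 (without knockdown 1) and -0.41 (without knockdown 2). The 518 tested genes of chromosome 1 had a median log2 fold change of 0.193, and with chromosome medians removed *Fn1* stood at -0.43, still not called (adjusted p = 0.119, edgeR).

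*Lox* (chr18:52649136-52663110, reverse strand, 7 exons) encodes lysyl oxidase, the copper enzyme that starts the cross-linking of collagen and elastin. There were 965 and 1037 reads in scrambled 1 and 2 against 963 and 825 in knockdown 1 and 2. Normalized counts of 941 ± 97.6 (SD, n = 2) and 962 ± 3.37 (SD, n = 2) overlapped, with both knockdown libraries between the scrambled ones. The log2 fold change was 0.03 (with 0.14 as its standard error, adjusted p = 0.923, edgeR), -0.08 without scrambled 2, and 0.31 once the chromosome 18 median of -0.278 was removed (adjusted p = 0.292). Its neighbour *Srfbp1* had 119 and 162 reads in scrambled against 60 and 68 in knockdown. *Srfbp1* was called lower (log2 fold change -0.92, adjusted p = 0.00556, edgeR), whereas *Gm41724*, which overlaps *Lox*, was not called (-0.24, adjusted p = 0.445).

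Of the small leucine-rich proteoglycans biglycan, decorin and lumican, only biglycan was read often enough to be tested. *Bgn* (chrX:72527208-72539541, forward strand, 8 exons), whose product binds collagen and TGF-beta and acts as a danger signal when released, had 399 and 451 reads in scrambled 1 and 2 against 509 and 404 in knockdown 1 and 2. Normalized counts were 398.6 ± 27.1 (SD, n = 2) in scrambled cells and 489.6 ± 24.7 (SD, n = 2) under knockdown. Both knockdown libraries were above both scrambled libraries, by 0.28 and 0.32 on the log2 scale in the 2 batches. The log2 fold change of 0.30 (standard error 0.14) had an unadjusted p of 0.0434 in edgeR. Of all genes tested, 21.8% had an unadjusted p under 0.05, and *Bgn* did not pass after adjustment (adjusted p = 0.213, edgeR).

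*Dcn* (chr10:97315275-97358155, forward strand), encoding decorin, had 3 and 2 reads in scrambled 1 and 2 against 5 and 2 in knockdown 1 and 2, a ratio of 1.648 with a 95% counting interval from 0.4501 to 6.583. *Lum* (chr10:97400990-97408577, forward strand), encoding lumican, was listed at 0 in all 4 libraries. A count of 0 allows, at 3 counts, up to 1.789 to 2.44 CPM, if reads of the gene were counted as those of others, and both limits and intervals cover counting error only. As for *Col1a1*, the cause of the 0 of *Lum* was not found, and no comparison was made for it.

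**Figure D3:**
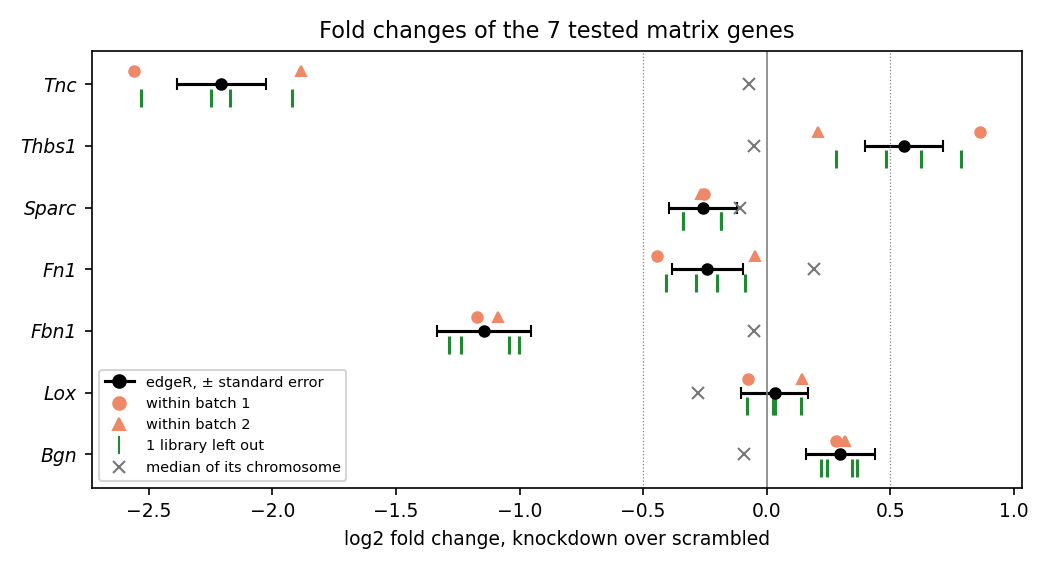
Log2 fold change of knockdown over scrambled (x axis) for the 7 tested genes, with the edgeR estimate ± standard error (black), the value in each batch (orange), the values with 1 library left out (green ticks), the median of the gene's chromosome (grey crosses) and the fold change threshold (dotted). Every estimate, batch value and left-out-library value of *Tnc* and *Fbn1* lies below -0.5, while *Thbs1* spreads from 0.21 to 0.86.

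Per kilobase of the canonical transcript, *Sparc* had the highest level in scrambled, 389 CPM per kb, followed by *Lox* (137.5), *Bgn* (114.9), *Thbs1* (104.9), *Fn1* (64.49) and *Tnc* (41.97). The lowest of the tested genes was *Fbn1*, at 7.202 CPM per kb. *Postn* and *Dcn* were under 1, at 0.7182 and 0.2748 CPM per kb. In direct RNA sequencing 1 read is 1 RNA molecule, so a division by length lowers long transcripts such as *Fbn1* (12004 bases) and *Fn1* (8410 bases) relative to their read counts. By CPM in scrambled 1 and 2, without that division, *Sparc* had 930.4 and 866, *Lox* 695 and 618, *Thbs1* 611 and 697, *Fn1* 549 and 536, *Tnc* 309 and 304, *Bgn* 288 and 269 and *Fbn1* 79.3 and 93.6. The ranges of *Lox* and *Thbs1* overlapped in that order.

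HnRNP L is known to bind CA repeats and CA-rich RNA, so the longest uninterrupted CA run of each canonical transcript was located. Of 8231 canonical transcripts of tested genes, 9.54% held a run of at least 10 bases, and of the 7 tested matrix genes *Bgn* and *Lox* did. *Bgn* alone also had a run of at least 20 bases, as did 3.56% of transcripts: it spans 50 bases of the 3′ UTR, from base 1956 to 2005 of the transcript. The called genes had shorter runs, 8 bases in the 5′ UTR of *Tnc* (bases 313 to 320), 9 in the coding part of *Fbn1* (4357 to 4365) and 8 in the 3′ UTR of *Thbs1* (4476 to 4483). The uncalled *Fn1* and *Sparc* had the shortest, 6 bases each. Introns were not searched, and binding was not measured. The sites are written 5′ to 3′ over 30 bases of GENCODE vM39 transcripts, with the run in capitals, for *Bgn*, which had the longest run, and for the 3 called genes.
Bgn: ACACACACACACACACACACACACACACAC
Tnc: cccgcgcgcagACACACACcctagcctctg
Fbn1: gtgtgtgttgACACACACAtgcggagcaca
Thbs1: cctctgagcagCACACACAgaagcattttc

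The nearest tested genes of *Tnc*, on its left side, and of *Fbn1*, on both sides, within 500 kb, were not called. *Tmem268*, whose midpoint lies 424.9 kb from that of *Tnc*, had a log2 fold change of -0.03. *Dut* and *Cep152*, on either side of *Fbn1* at 151.2 and 189.8 kb, had -0.26 and -0.09. Of the 6 tested genes within 500 kb of *Fbn1*, 1 was called: *Gm14002*, with 19 and 31 reads in scrambled against 8 and 3 in knockdown. Its log2 fold change was -1.95 (adjusted p = 0.0145, edgeR). The nearest tested genes of *Fn1* (*Atic*, 0.35), *Sparc* (*Slc36a1*, 0.35, and *Atox1*, 0.33), *Bgn* (*Haus7*, -0.23, and *Dusp9*, -0.50) and *Thbs1* (*Gpr176*, 0.19) were not called either. *Gm5641*, the nearest to *Postn*, stood at -1.11 on 4 to 26 reads (adjusted p = 0.198, edgeR). Non-coding genes on the opposite strand overlap exons of *Tnc* by 303 bases (*8030451A03Rik*, 4, 0, 2 and 0 reads in scrambled 1 and 2 and knockdown 1 and 2) and of *Thbs1* by 511 (*Gm13986*, 4, 5, 9 and 3 reads) and 208 bases (*Gm29233*, no reads). *Gm9913* overlaps *Fbn1* by 2442 bases and *Apol7d* overlaps *Fn1* by 429, both without reads, and *Gm41724* overlaps *Lox* by 30 bases, with 85 to 135 reads. The strand setting of the counting is not given in the sources used here, so reads of such pairs may be shared or set aside.

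The relatives of these genes were called in both directions, and their counts stand beside 2.33% called higher, 3.22% called lower and a median log2 fold change of -0.00059 among all genes tested. Among 14 other leucine-rich proteoglycans and related proteins, 3 were tested, 1 was called higher and none lower, with a median log2 fold change of 1.18. The called gene was *Podnl1*, a podocan-like proteoglycan, with 25 and 31 reads in scrambled 1 and 2 against 64 and 84 in knockdown 1 and 2. Knockdown was higher in both libraries, at 1.61 ± 0.26 (standard error) on the log2 scale (adjusted p = 0.00104, edgeR), and the call held with each library left out in turn. Osteoglycin (*Ogn*) had 10, 8, 25 and 11 reads in the same order, a log2 fold change of 1.18 that did not pass the test (adjusted p = 0.127) and lay between 0.60 and 1.55 with 1 library left out, and tsukushi (*Tsku*) stood at 0.03, while *Omd* had 0 to 3 reads and was not tested. No reads were found for 7 of the 14, among them *Fmod*, *Prelp* and *Podn*.

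Of 21 elastic fibre genes related to *Fbn1* and *Lox*, 9 were tested, 1 was called higher and 1 lower, with a median log2 fold change of 0.03. *Efemp2* (fibulin-4), which brings lysyl oxidase to elastin, had 644 and 854 reads in scrambled 1 and 2 against 450 and 371 in knockdown 1 and 2. Its log2 fold change was -0.66 (adjusted p = 0.00591, edgeR), and -0.43 and not called with chromosome medians removed (adjusted p = 0.0935). *Ltbp2*, a latent TGF-beta binding protein related to fibrillins, had 28 and 30 reads in scrambled against 53 and 56 in knockdown, which gave a log2 fold change of 1.11 (adjusted p = 0.0149, edgeR) that was not called by DESeq2's Wald test with local fit (adjusted p = 0.104), nor without scrambled 2 (0.0677) or knockdown 2 (0.0874). *Fbln2* (0.03), *Ltbp1* (0.37) and *Loxl1* (-0.48), which have the most reads after *Efemp2*, were not called; *Loxl1* moved between -0.91 and -0.18 with 1 library left out and was called without scrambled 1 (adjusted p = 0.0428). *Loxl4*, named after its values were seen, just missed the call (0.70, adjusted p = 0.0511, edgeR) and was called higher with the replicate block (0.69, adjusted p = 0.0476), with chromosome medians removed (0.93, 0.0134) and without scrambled 1 (0.0216). It was not called without scrambled 2 (0.50, adjusted p = 0.348), knockdown 1 (0.250) or knockdown 2 (0.0652), nor by DESeq2's Wald test with local fit (0.302). *Eln*, *Fbn2*, *Mfap2* and *Mfap4* had no reads.

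Among 22 matricellular relatives none of the 6 tested was called, and the median log2 fold change was 0.09; by edgeR 3 of the 6 had an unadjusted p under 0.05, as did 21.8% of all genes tested, and DESeq2's Wald test with local fit called none. Osteopontin (*Spp1*), the one with the most reads, had 708 and 525 reads in scrambled 1 and 2 against 1187 and 563 in knockdown 1 and 2, so that the groups overlapped after scaling (log2 fold change 0.65, adjusted p = 0.0974, edgeR); with the replicate block it was called, at 0.63 (adjusted p = 0.0209). Leaving out 1 library moved *Spp1* between 0.16 and 1.06, and it was called without scrambled 1 (adjusted p = 4.91e-05) or knockdown 2 (0.00401) but not without scrambled 2 (0.490) or knockdown 1 (0.761). *Fstl1* (-0.19) and *Ecm1* (0.47) were not called. The thrombospondin *Thbs2* did not pass the test (0.18), and with 1 library left out it lay between -0.012 and 0.43. The tenascins *Tnr*, *Tnxb* and *Tnn* had at most 1 read in any library.

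Of 20 basement membrane and large proteoglycan genes, 8 were tested and 1 was called lower, with a median log2 fold change of 0.12. Versican (*Vcan*), a large chondroitin sulphate proteoglycan, had 96 and 117 reads in scrambled 1 and 2 against 63 and 37 in knockdown 1 and 2. Knockdown was the lower in both libraries (log2 fold change -0.89, adjusted p = 0.0144, edgeR), but the call was lost without knockdown 2 (adjusted p = 0.110) and in DESeq2's Wald test with local fit (0.0863). Nidogen-1 (*Nid1*, 0.06) and the laminin chains *Lamb1* (0.24) and *Lamc1* (0.31) were not called. With 1 library left out, *Nid1* lay between -0.11 and 0.24, *Lamb1* between 0.05 and 0.41, and *Lamc1* between 0.15 and 0.44.

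Receptors of these matrix proteins were called in both directions, with 3 higher and 1 lower of the 13 tested among 20 (2.33% and 3.22% of all genes tested), and a median log2 fold change of 0.03. *Itga5*, the alpha chain of the classical fibronectin receptor, had 224 and 298 reads in scrambled 1 and 2 against 148 and 115 in knockdown 1 and 2, and fell by 0.78 on the log2 scale (adjusted p = 0.00471, edgeR). Its partner *Itgb1* did not pass the test (-0.20). *Lrp1*, which takes up thrombospondins, had 146 and 181 reads in scrambled against 307 and 205 in knockdown, which gave a log2 fold change of 0.84 (adjusted p = 0.00364, edgeR; 0.0788 without knockdown 1). *Cd47*, the thrombospondin-1 receptor, had 204 and 226 reads in scrambled against 341 and 226 in knockdown (log2 fold change 0.59, adjusted p = 0.0349), and *Itgb5* had 105 and 136 against 183 and 143 (0.64, adjusted p = 0.0240); both calls were lost with chromosome medians removed (adjusted p = 0.439 and 0.336) and without knockdown 1 (0.294 and 0.150) or scrambled 2 (0.205 and 0.0852), and that of *Itgb5* also without scrambled 1 (0.0995). DESeq2's Wald test with local fit called neither (adjusted p = 0.0973 for *Cd47* and 0.129 for *Itgb5*). *Cd44* (-0.40) and *Sdc4* (0.03) were not called.

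Of 23 collagens, processing and cross-linking genes, 18 were tested, 4 were called lower and 1 higher, with a median log2 fold change of -0.39 beside -0.00059 for all genes tested, of which 3.22% were called lower and 2.33% higher. *Col1a2*, the alpha-2 chain of type I collagen, had 409 and 345 reads in scrambled 1 and 2 against 154 and 105 in knockdown 1 and 2 and fell by 1.37 on the log2 scale (adjusted p = 0.000182, edgeR). Its partner chain *Col1a1* was listed at 0 in all 4 libraries. *Col5a1* had 139 and 232 reads in scrambled against 85 and 72 in knockdown (log2 fold change -1.02, adjusted p = 0.00210, edgeR). The procollagen C-proteinase enhancers went opposite ways: *Pcolce* had 390 and 452 reads in scrambled against 668 and 483 in knockdown (0.64, adjusted p = 0.00934), and *Pcolce2* 406 and 539 against 261 and 282 (-0.58, adjusted p = 0.0272). *Plod2*, a lysyl hydroxylase, was called lower at -0.62 (126 and 155 against 85 and 74 reads, adjusted p = 0.0366, edgeR), but not with any library left out (adjusted p from 0.0993 to 0.172) nor by DESeq2's Wald test with local fit (0.229). The calls of *Pcolce*, *Pcolce2* and *Plod2* were lost with chromosome medians removed (adjusted p = 0.134, 0.573 and 0.557), and those of *Pcolce* and *Pcolce2* also without scrambled 2 (0.0806 and 0.112) or knockdown 1 (0.108 and 0.230). *Serpinh1* (-0.39), the collagen chaperone, *Col3a1* (-0.42) and *Col5a2* (0.41) were not called. *Col3a1* moved between -0.80 and -0.13 with 1 library left out, and was called lower without scrambled 2 (adjusted p = 0.0338) or knockdown 1 (0.0406).

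**Figure D4:**
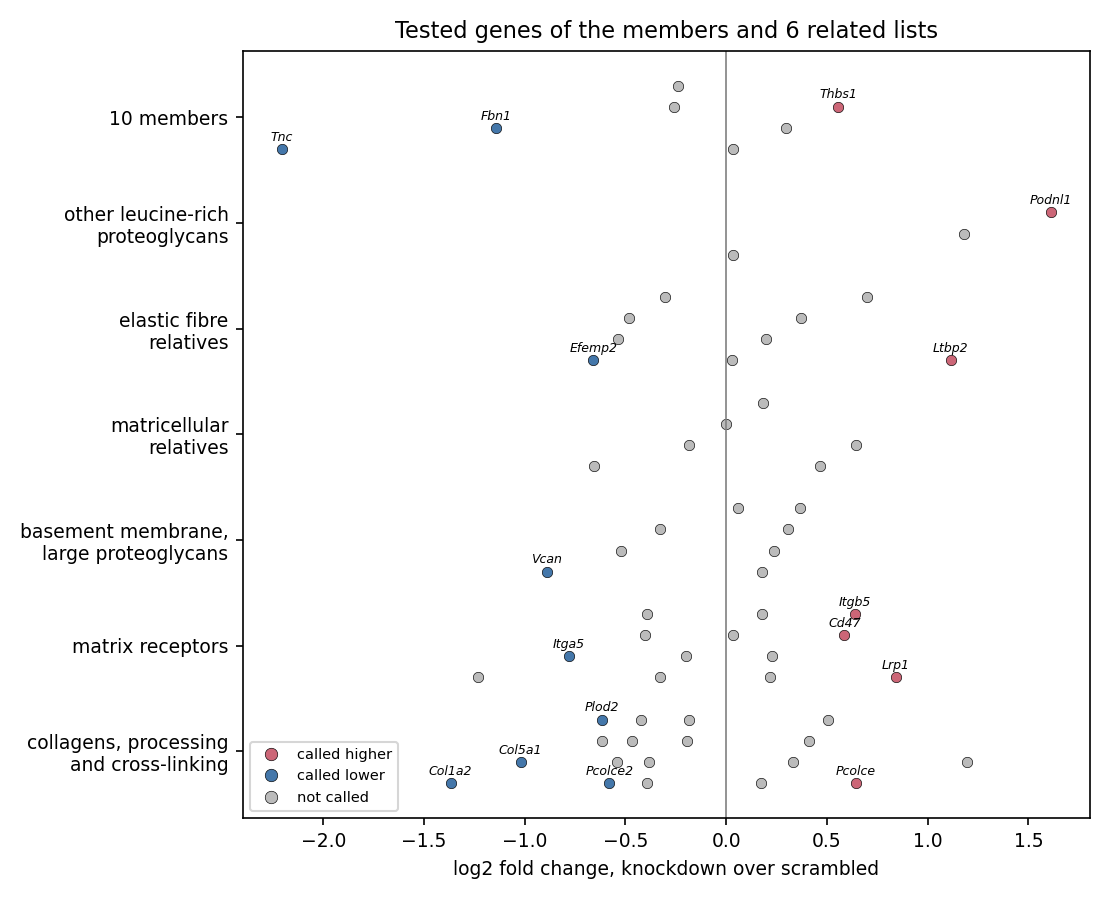
Log2 fold change of knockdown over scrambled (x axis) of each tested gene of the 10 matrix genes and of 6 lists of related genes (1 point per gene, spread vertically for legibility; red, called higher; blue, called lower; grey, not called). Called genes lie on both sides of 0, and *Tnc* at -2.21 lies farthest left.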

How the data were processed

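Counts are whole reads per gene, deposited without normalization. The authors used guppy for basecalling of direct RNA reads, minimap2 2.17 for alignment to GRCm39 and HTSeq 0.9.1 for counting; the annotation release and strand setting are not given in the sources used here. GENCODE vM39 matched 56017 of 56748 gene IDs. The 5 lines of unassigned reads were left out, and 56.5 to 57.84% of reads were on genes. Among the unassigned, 349789 to 479528 reads per library were set aside as ambiguous between genes. A further 511986 to 658545 per library were set aside for low alignment quality. Whether reads of the genes listed at or near 0 are among them was not tested. Scrambled 1 and 2 held 1387523 and 1676911 counted reads, knockdown 1 and 2 held 1374637 and 1229424.

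Groups were compared over all 8670 genes passing filterByExpr with edgeR 4.0.16 (R 4.3.3), TMM and the quasi-likelihood test, with Benjamini-Hochberg adjustment. The scripts were tested on simulated data. Within-batch values are log2 ratios of normalized counts plus 0.5. The labels give each library a batch, 1 or 2, equal to its replicate number, and this label pairs the libraries; the counts themselves showed little sharing (deviations of libraries 1 from their group means, r = 0.0137 over 3711 genes). With 2 against 2 libraries an exact permutation test cannot go below p = 0.333 and was not used. Alternatives were other normalizations, filters, dispersion fits and thresholds, DESeq2 1.42.0 in 4 configurations, the replicate block, mitochondrially encoded genes and *Rn18s* left out, chromosome medians removed, and each library left out. Of each related list, called genes (up to 6) and the 3 genes with the highest mean count are named; other genes were named after their values were seen. The members and lists were chosen with earlier results of these data known. *Lox* sequence is not printed.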

Additional observations from a re-analysis of the deposited data

How the results depend on the processing

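*Tnc* and *Fbn1* were called lower in every alternative run, and *Sparc*, *Fn1* and *Bgn* kept their direction and were called in none. The number of the 10 genes called higher, 1 (*Thbs1*), became 0 with the replicate block, with the DESeq2 Wald and likelihood-ratio tests with parametric fit, at an adjusted p under 0.01 and at an absolute log2 fold change over 1, and ranged from 0 to 1 with single libraries left out. The block changed no other call of the 10 genes or of *Hnrnpl*, added *Loxl4* and *Spp1* to the calls of the related lists, and gave 204 genes higher and 280 lower among all genes. *Lox* turned to -0.079 without scrambled 2 and reached 0.14 without scrambled 1.

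Over all genes, 202 were called higher and 279 lower. These became 44 and 71 with the DESeq2 Wald test (parametric fit), 80 and 148 with its local fit, 42 and 70 with the likelihood-ratio test (parametric fit), 75 and 147 with its local fit, and 106 and 179 with chromosome medians removed. Thresholds gave 78 and 121 (adjusted p under 0.01), 340 and 432 (under 0.10) and 69 and 118 (absolute log2 fold change over 1). Leaving out libraries gave 82 to 183 higher and 112 to 261 lower, fewest without knockdown 1. *Hnrnpl* fell by 0.78 (-0.782209) without passing in DESeq2 with parametric fit (adjusted p = 0.0567, Wald, and 0.0670, likelihood-ratio), and lay between -1.03 and -0.48 with libraries left out. The causes were not tested. *Postn* and *Dcn* had 2 to 5 reads per library, too few for the test, and the cause of these low counts was not tested. The cause of the 0 of *Lum* was not found.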
